A study of Mus musculus with 139 samples.

Results

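Whole lungs of mice that had received 80 µg of multi-walled carbon nanotubes (MWCNT) were compared with lungs of mice given only the vehicle, both 12 months after exposure. The source label gives substance, dose and month, and by it 16 of the 139 arrays in the series were chosen (8 with 80 µg MWCNT, 8 with vehicle), and all 22180 genes with a feature of their own were tested. The animals were male mice, written C57BL/J6, received at 7 weeks of age and housed singly. Under isoflurane each mouse was given a single 50 µL aliquot by pharyngeal aspiration, so all groups shared the anaesthesia, the procedure and the vehicle. The vehicle, called DM, is phosphate-buffered saline without calcium and magnesium, with glucose, mouse serum albumin and the surfactant lipid dipalmitoyl phosphatidylcholine added. Other mice received 1, 10 or 40 µg MWCNT or 120 µg crocidolite asbestos, and lungs were also taken at 1 and 6 months. The study asked which expression changes accompany inflammation and fibrosis up to 12 months after nanotube exposure. Each of the 16 arrays carries RNA of a mouse with a number of its own. The p-values rest on a spread between animals for each gene. That spread was pooled within groups over all 138 animals in 18 groups, not over these 16 alone. Values are deposited log2 intensities for a gene's feature, and differences are log2 values, treated minus DM. They can be set against each other for the same gene, not between genes.

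Multi-walled carbon nanotubes are stiff, poorly soluble fibres that persist in the lung. Inhaled fibres are taken up mainly by alveolar macrophages, which can take on a lipid-laden form with many lysosomes and release proteases and chemokines. Lungs with lasting particle deposits can also show mucous cell change of the airways, neutrophils, immunoglobulin secretion and scarring, and the gene lists below follow these processes.

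The arrays carried the lung genes their label calls for. Surfactant protein C (Sftpc) was at 12.53 ± 0.08 (SD, n = 8) with 80 µg and 12.50 ± 0.03 (SD, n = 8) with DM, and the club cell secretoglobin Scgb1a1 was at 12.65 in both. Both genes lie near the top of the scale, whose highest value was 13.276. Ager, of type 1 alveolar cells, was at 9.74 in 80 µg replicate 5 and 9.99 in DM replicate 4, against 10.55 to 11.69 in the others. The mean of 12 lung tissue genes was also lowest in these mice (9.81 and 9.95, against 10.08 to 10.43). Several arrays stood apart. In the 80 µg group, replicates 1 and 5 had mean levels of 6.44 and 6.74 over 15 genes of squamous epithelium, against 3.03 to 3.52 in the other 80 µg mice and 2.74 to 3.31 with DM. The same mice had 6.31 and 7.16 over 12 skeletal muscle genes, where DM replicate 2, at 4.56, also stood above the rest. Replicate 2 of each group correlated less with the other arrays (medians 0.937 and 0.923, against a median of 0.965 over all arrays). The titles of 5 of the 8 arrays with 80 µg (replicates 1 to 5) and 3 of the 8 with DM carry the word replacement, and what was replaced is not stated. Calls lost without 80 µg replicates 1 and 5, or without replicate 2 of both groups, are named after the counts. For some gene lists, medians without these arrays or by title are given where the lists are described.

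At 12 months 39 of 22180 genes differed between 80 µg and DM in limma at an adjusted p under 0.05 (0.176%), 35 higher (0.158%) and 4 lower (0.018%). At an unadjusted p under 0.05, 1277 genes were higher (5.76%) and 1112 lower (5.01%). The higher genes included genes of macrophages (Mmp12, Gpnmb, Retnla, Ctsk, Trem2, Cd68) and of mucus and airway secretion (Clca1, Fcgbp, Muc5b, Pigr). Cd177 and Cxcr1, known from neutrophils, and Lcn2, of neutrophils and epithelium, rose as well. Of the 16 genes in the neutrophil list, however, 9 lay above 0 and 7 below, with a median of 0.05. Differences of the 35 higher genes ran from 0.43 to 4.70 with a median of 0.89. In 16 of the 35 all 8 treated mice lay above every DM mouse, which held for 22 of all genes (0.0992%). The reverse held for 5 of all genes (0.0225%) and for 0 of the 4 lower ones. The lower genes were Cd3d of T cells, Swap70 of B cells, Bend5 and the predicted gene Gm4759. In a fit of only the 80 µg and DM groups of 12 months, 14 of the 35 higher genes and 0 of the 4 lower ones passed. When each array was centred on its median the calls were 50 higher and 16 lower, so that 75.8% of the calls were higher in place of 89.7%.

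The counts rested on single animals and on the split by title. Without 80 µg replicate 8, which had the highest value of its group in 32 of the 35 higher genes, limma called 13 genes higher. Without 80 µg replicate 2 or 5 it called 67 and 66 higher, and without DM replicate 8 it called 23. The 4 lower calls became 24 without 80 µg replicate 5, 20 without DM replicate 2 and 7 without 80 µg replicate 4, and 0 to 2 without 80 µg replicate 1 or 8 or any DM replicate other than replicate 2. Of the 39 genes 13 passed with each of the 16 arrays left out, and the other 26 were all lost without 80 µg replicate 8. The 13 were Clca1, Mmp12, Gpnmb, Retnla, Ctsk, Cd177, Lcn2, Lgals3, Ms4a7, Igh-VS107, Tmc5, Pklr and AU040972. Without replicates 1 and 5 of the 80 µg group A2ml1, Cd3d, Kcnmb1, Ppp1r14d and Zfp750 no longer passed. Without replicate 2 of both groups 11 genes no longer passed (adjusted p from 0.0545 for Chil1 to 0.161 for Bend5), the others being Atp10a, C3ar1, Cdhr1, Gm4759, Mlph, Ppp1r14d, Slc6a20a, Swap70 and Trem2. Of the 26 genes above, 5 were lost without 80 µg replicate 8 alone, and Trem2 then stood at 1.04 (adjusted p = 0.0694), Pigr at 0.88 (0.056) and Muc5b at 0.75 (0.0603). Among arrays without the word replacement (3 with 80 µg, 5 with DM) limma called 134 genes higher and 73 lower, and among those with it (5 against 3) it called 5 higher and none lower. Clca1 was at 6.00 without the word and 3.79 with it, Mmp12 at 2.77 and 3.12, Gpnmb at 2.31 and 2.23 and Retnla at 2.30 and 2.38, and these 4 passed in both. Fcgbp, at 2.13 and 0.57, and Muc5b, at 1.35 and 0.66, passed without the word and not with it. The difference between the sets of arrays with and without the word was not tested.

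Several macrophage genes rose without overlap between the groups. Mmp12, the macrophage elastase that cleaves elastin, ran from 7.73 to 8.64 with a median of 8.21 in the 80 µg mice and from 4.90 to 5.52 with a median of 5.42 in DM mice. The lowest treated mouse stood above the highest control by more than the whole range of either group. Mmp12 was higher by 2.89 ± 0.35 (SE), 7.39-fold (limma, adjusted p = 4.65e-09). Gpnmb, a membrane glycoprotein of lipid-laden and lysosome-rich macrophages, ran from 8.08 to 9.33 (median 8.24) against 5.98 to 6.40 (median 6.24). It was higher by 2.30 ± 0.31 (adjusted p = 1.68e-07), and no treated mouse came near the control range. Retnla, a secreted protein of alternatively activated macrophages and airway epithelium under type 2 cytokines, ran from 9.28 to 10.21 (median 9.53) against 6.89 to 7.88 (median 7.35). Retnla was 4.78-fold higher (2.26 ± 0.31, adjusted p = 1.28e-07) in 8 of 8 mice. Ctsk, a collagen-degrading cathepsin best known from osteoclasts, lay between 7.19 and 8.10 (median 7.46) against 5.47 to 6.34 (median 6.15), a difference of 1.42 ± 0.26 (adjusted p = 0.000708).

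**Figure D1:**
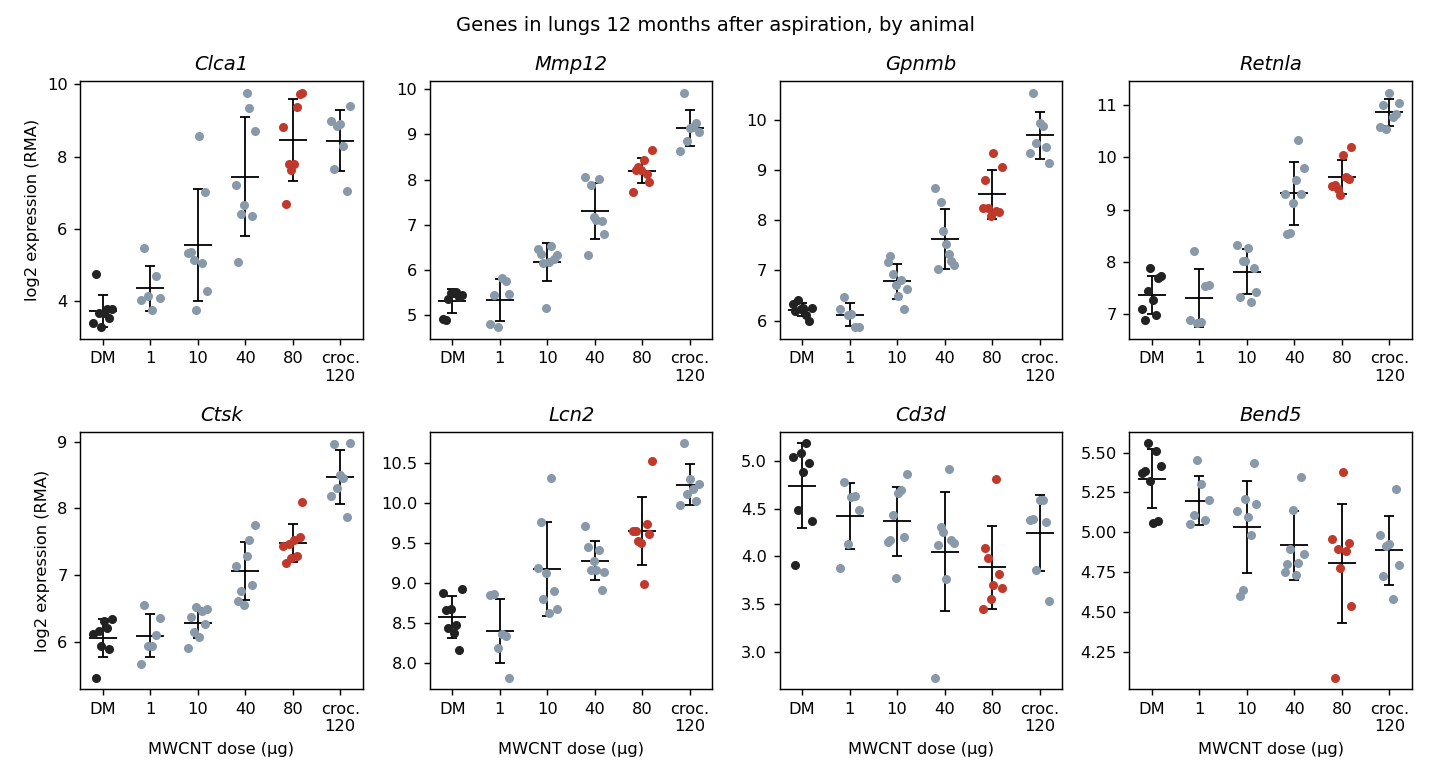
Log2 level (vertical axis) of 8 genes at 12 months by group (horizontal axis: DM, 1, 10, 40 and 80 µg MWCNT, 120 µg crocidolite), with a point for each mouse and a bar for the group mean with SD. For Mmp12 the 80 µg mice sit between 7.73 and 8.64 and the DM mice between 4.90 and 5.52, whereas for Cd3d and Bend5 the groups overlap.

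Smaller differences of the same direction were found for other genes of macrophages. Trem2, a lipid-sensing receptor of macrophages, was at 5.53 to 6.63 (median 6.06) with 80 µg and 4.55 to 5.23 (median 5.00) with DM, higher by 1.11 ± 0.24 (limma, adjusted p = 0.0118). Cd68, an endosomal glycoprotein used as a general macrophage marker, was at 8.07 to 9.08 (median 8.55) against 7.21 to 8.03 (median 7.65), higher by 0.89 ± 0.20 (adjusted p = 0.019). Neither gene had an overlap between the groups. Lgals3, the galectin of phagocytic macrophages, rose by 0.71 ± 0.14, and Ms4a7, a membrane-spanning protein of macrophages, by 1.00 ± 0.21, each in 8 of 8 mice. C3ar1, the receptor for the complement fragment C3a, rose by 0.89 ± 0.19 and Adam8, a membrane protease of leukocytes, by 0.71 ± 0.15, each with 7 of 8 treated mice above every control. Ccl22, a chemokine from macrophages and dendritic cells that attracts T cells carrying Ccr4, rose by 0.87 ± 0.20 (adjusted p = 0.0189). Ccl22 was at 6.94 in 80 µg replicate 8 and between 5.38 and 5.70 in the other treated mice. In a list of 21 measured genes of lipid-laden macrophages 4 rose (Gpnmb, Trem2, Cd68 and Lgals3), 8 were higher at an unadjusted p, and the median was 0.18 beside 0.01 over all genes. Of those not past the test, the fatty acid binding protein Fabp5 was at 0.71 (adjusted p = 0.0977), the integrin Itgax at 0.69 (0.0791), the scavenger receptor Msr1 at 0.55 (0.34), Marco at 0.41 (0.611) and Apoe at -0.05 (0.914). Siglecf and Pparg, which resident alveolar macrophages carry, were at -0.10 and 0.13. In bulk tissue more cells of a type and more RNA per cell cannot be told apart.

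The stretch of 250 bases before the start of transcription is shown for 4 of these macrophage genes whose windows hold matches to the motifs below (RefSeq, assembly GRCm38.p6). Capitals mark matches, on either strand, to the AP-1 site TGANTCA (Mmp12, Cd68, Trem2), to the STAT6-type site, which is TTC and GAA with any 4 bases between (Retnla), and to the PU.1-type core GAGGAA or its reverse TTCCTC (Cd68, Trem2, Retnla). The windows are chr9:7347124-7347373 on the plus strand for Mmp12, which has another start with a window at chr9:7344147-7344396, chr11:69666171-69666420 on the minus strand for Cd68, chr17:48346151-48346400 on the plus strand for Trem2 and chr16:48842359-48842608 on the plus strand for Retnla.
Mmp12: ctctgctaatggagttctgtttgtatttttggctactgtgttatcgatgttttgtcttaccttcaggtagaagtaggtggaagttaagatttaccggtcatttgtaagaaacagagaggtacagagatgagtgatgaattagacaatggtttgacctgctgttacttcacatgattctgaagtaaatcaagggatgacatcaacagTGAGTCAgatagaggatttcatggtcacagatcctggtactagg
Cd68: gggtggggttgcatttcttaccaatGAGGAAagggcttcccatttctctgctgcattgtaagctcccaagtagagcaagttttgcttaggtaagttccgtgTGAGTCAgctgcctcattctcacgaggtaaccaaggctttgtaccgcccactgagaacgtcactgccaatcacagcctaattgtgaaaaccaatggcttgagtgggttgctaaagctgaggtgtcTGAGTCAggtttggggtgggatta
Trem2: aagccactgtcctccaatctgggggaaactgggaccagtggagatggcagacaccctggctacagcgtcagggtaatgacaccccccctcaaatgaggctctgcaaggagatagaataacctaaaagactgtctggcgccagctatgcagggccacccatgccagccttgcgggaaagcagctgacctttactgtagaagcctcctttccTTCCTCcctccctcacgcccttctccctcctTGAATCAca
Retnla: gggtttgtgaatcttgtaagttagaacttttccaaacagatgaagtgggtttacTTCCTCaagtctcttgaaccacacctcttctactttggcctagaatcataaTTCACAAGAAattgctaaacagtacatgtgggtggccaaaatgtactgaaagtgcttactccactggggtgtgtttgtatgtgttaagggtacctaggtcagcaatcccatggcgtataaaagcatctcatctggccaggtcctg
In Mmp12 the AP-1 match began 44 bases before the start, in Cd68 there were matches at 149 and 24 bases, and in Trem2 at 9 bases before it. The window of the other Mmp12 start has no AP-1 match and a PU.1-type match beginning 86 bases before that start. Windows were found for 33 of the 39 called genes (36 windows, as some genes have several starts). The AP-1 letters stood in 13.9% of them (C3ar1, Cd68, Mmp12, Ms4a7 and Trem2) and in 6.75% of all 32851 windows of that length. The STAT6-type letters stood in 11.1% (Lcn2, Lgals3, Ms4a7 and Retnla) against 5.85% of all, the PU.1-type core in 30.6% against 23.3%, and the E-box CACGTG read by the MITF and TFE family in 5.56% (Mlph and Pigr) against 6.02%. The windows of Gpnmb, Adam8 and Ccl22, which also rose, held no match to any of these motifs, and that of Ctsk held only PU.1-type matches. A window can hold several of these motifs, and a match says only that the letters are there.

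Other macrophage and protease lists gave 0 to 2 calls each. In the alternative activation list, Retnla and Ccl22 rose out of 14 measured genes, and 4 were higher at an unadjusted p. The chemokine Ccl17 was at 0.85 (limma, adjusted p = 0.144), the arginase Arg1 at 0.09 ± 0.33, the mannose receptor Mrc1 at 0.16 and Clec10a at -0.35. Chil1, the chitinase-like protein also called BRP-39, rose by 0.49 ± 0.12 (adjusted p = 0.0345), from a median of 10.16 with DM (9.95 to 10.59) to 10.70 (10.29 to 11.23), with 5 of 8 mice above every control. The other 5 chitinase-family genes did not pass, with Chil3 at 0.04 ± 0.27 and Chil4 at 0.60 ± 0.58. Of 19 metalloproteases and inhibitors Mmp12 and Adam8 rose, Mmp19 was at 0.55 (adjusted p = 0.195), the inhibitor Timp1 at 0.49 ± 0.20 (0.349), and Mmp2, Mmp8, Mmp13 and Mmp14 lay between 0.02 and 0.20. Among 15 genes of osteoclasts only Ctsk passed. The proton pump subunit Atp6v0d2 was at 0.78 ± 0.24 (0.162), the phosphatase Acp5 at 0.31 and the fusion protein Dcstamp at 0.23. Of 19 lysosomal genes 0 passed and 6 were higher at an unadjusted p, with cathepsins Ctsd at 0.44 ± 0.12 (0.0941) and Ctsb at 0.39 ± 0.10 (0.0719), the latter above every control in 8 of 8 mice.

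The gene with the largest difference was Clca1, a protein secreted with mucus by goblet cells. It ran from 6.70 to 9.76 (median 8.29) with 80 µg and from 3.30 to 4.75 (median 3.69) with DM. All treated mice stood above all controls, of which the highest, at 4.75, was replicate 2. The difference was 4.70 ± 0.63 or 26.1-fold (limma, adjusted p = 1.28e-07). Fcgbp, a large mucus protein that binds to mucins, was at 4.71 to 6.86 (median 5.53) against 3.79 to 4.68 (median 4.60), higher by 1.25 ± 0.29 (adjusted p = 0.0229) in 8 of 8 mice, some of them only just above the controls. Muc5b, the main gel-forming mucin of the airways, was at 7.94 to 9.51 (median 8.49) against 7.36 to 8.20 (median 7.63), higher by 0.88 ± 0.17 (adjusted p = 0.00328). Of its 8 treated values 6 lay above the whole control range. Muc5ac, the mucin induced in goblet cells, was at 3.59 to 5.50 (median 4.42) against 3.23 to 3.94 (median 3.72), a difference of 0.84 ± 0.27 that did not pass (adjusted p = 0.195) although 7 of 8 mice lay above the controls. Among the 14 mucous cell genes 3 rose, 11 were higher at an unadjusted p, 13 lay above 0 and the median was 0.86. Those that did not pass include the trefoil factor Tff2 (1.18), the anion exchanger Slc26a4 (1.00), the disulfide isomerase Agr2 (0.96) and the transcription factors Foxa3 (0.47) and Spdef (0.38). The mean of the list lay between 4.78 and 6.20 in treated mice and between 4.25 and 4.65 in controls, without overlap. The highest mouse was replicate 8 and the lowest replicate 2. The list median was 1.36, with 6 genes higher, in arrays without the word replacement (3 against 5 mice) and 0.55, with 1 higher, in those with it (5 against 3).

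Genes of other airway cells lay on the same side and did not pass over all arrays. All 12 genes of ciliated cells were above 0 with a median of 0.33, 0 passed and 7 were higher at an unadjusted p, among them the cadherin Cdhr3 (0.45 ± 0.13, limma, adjusted p = 0.118) and the master regulator of cilia Foxj1 (0.42 ± 0.15, adjusted p = 0.248). Of the 12, 1 passed without 80 µg replicates 1 and 5 or without arrays of low correlation, 2 after quantile normalization and 3 in arrays without the word replacement (median 0.55, against 0.28 with the word and 0 passed). In the list of 10 club cell genes 0 passed, 3 were higher at an unadjusted p and the median was 0.12. Of the 10, 1 passed without replicate 2 of both groups, 2 without arrays of low correlation or after quantile normalization and 3 in arrays without the word replacement. Scgb3a1, a secretoglobin, was at 0.84 ± 0.24 (adjusted p = 0.109) and the chloride channel subunit Gabrp at 0.44 ± 0.12 (adjusted p = 0.0875). Scgb1a1 was at 0.00 ± 0.06, with levels of 12.55 to 12.79 near the top of the scale, where a change can be understated. Of 12 genes of basal and transitional epithelium 0 passed and 2 were higher at an unadjusted p (median 0.24), and of 10 mesothelial genes 0 passed and 1 was higher at an unadjusted p, with Msln at 0.45 ± 0.27. In type 2 alveolar cells 14 of 15 genes lay above 0 with a median of 0.14, 0 passed, 6 were higher at an unadjusted p, and the collectins Sftpd and Sftpa1 were at 0.36 ± 0.11 and 0.19 ± 0.06. Of the 15, 1 passed in arrays without the word replacement and 2 after quantile normalization. The 11 genes of type 1 alveolar cells had 0 past the test, 1 lower at an unadjusted p and a median of -0.14, with Ager at -0.16 ± 0.22. That list was low in 80 µg replicate 5 (8.40) and DM replicate 4 (8.61) against medians of 9.77 and 9.92.

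Several secreted and surface proteins of epithelium rose. Pigr, the receptor that carries IgA across epithelium, was at 8.43 to 10.54 (median 8.88) against 7.48 to 8.55 (median 7.93), higher by 1.09 ± 0.21 (limma, adjusted p = 0.00184), with 7 of 8 mice above every control and replicate 8 far above the others. Gp2, a glycoprotein of the apical membrane that binds bacteria, was at 3.65 to 6.12 (median 4.21) against 2.66 to 3.70 (median 3.39), higher by 1.14 ± 0.26 (adjusted p = 0.0229). A2ml1, a protease inhibitor of the alpha-2-macroglobulin family, rose by 1.05 ± 0.26 and Tmc5, a channel-like membrane protein, by 1.02 ± 0.19, each with 7 of 8 mice above the controls. Slc6a20a, an imino acid transporter, rose by 0.69 ± 0.16, Mlph, a linker of Rab27a vesicles to myosin, by 0.55 ± 0.13, and Zfp750, a transcription factor of epidermal differentiation, by 0.55 ± 0.13. Zfp750 and A2ml1 no longer passed without 80 µg replicates 1 and 5, the mice high in squamous genes (adjusted p = 0.0516 and 0.0729). In replicates 1 and 5 A2ml1 was at 9.04 and 8.70, and in replicates 7 and 8, which are not high in squamous genes, at 9.39 and 9.98. Zfp750 was at 6.08 and 5.84 in the former and at 6.09 and 6.21 in the latter. The part of squamous epithelium in the calls of these genes was not tested. Cdhr1, a cadherin known from photoreceptors, was at 3.44 to 4.68 against 2.77 to 3.34, higher by 0.85 ± 0.20 in 8 of 8 mice, and AU040972 rose by 0.86 ± 0.17 in 8 of 8.

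Of the neutrophil genes few passed. Cd177, a surface glycoprotein of neutrophils, was at 6.58 to 8.92 (median 7.44) against 5.71 to 6.32 (median 5.90), without overlap, and rose by 1.42 ± 0.23 (limma, adjusted p = 5.48e-05). Replicate 8, at 8.92, stood apart from the other treated mice. Cxcr1, a receptor for neutrophil chemokines, was at 4.22 to 6.62 (median 4.89) against 3.28 to 4.61 (median 3.84) and rose by 1.21 ± 0.27 (adjusted p = 0.0189), with 5 of 8 mice above the controls and replicate 8 again the highest. In the list of 16 neutrophil genes Cd177 alone passed and the median was 0.05. S100a8 was at -0.33, S100a9 at -0.42, the granule enzymes Mpo and Elane at 0.24 and 0.09, Ly6g at 0.27 and Cxcr2 at -0.16. Lcn2, the siderophore-binding lipocalin of neutrophils and epithelium, was at 8.99 to 10.52 (median 9.63) against 8.16 to 8.93 (median 8.57), higher by 1.08 ± 0.20 (adjusted p = 0.00119) in 8 of 8 mice. Among 14 acute phase genes Lcn2 alone passed, 5 were higher at an unadjusted p and the median was 0.29. The serum amyloid gene Saa3 was at 1.43 ± 0.47 (adjusted p = 0.195), with replicate 8 at 7.31 and a treated median of 5.04, and haptoglobin (Hp) at 0.32 (0.146). F10, coagulation factor X, rose by 0.69 ± 0.16.

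Chemokines, complement and type 2 cytokines gave few or no calls. Of 13 CC chemokines 0 passed and 5 were higher at an unadjusted p (median 0.29), with Ccl3 at 0.90 ± 0.23 (limma, adjusted p = 0.0718), Ccl9 at 0.62 ± 0.20, Ccl6 at 0.54, Ccl11 at 0.52 and Ccl2 at 0.32 ± 0.19. Of 15 CXC chemokines 0 passed and 1 was higher at an unadjusted p, with Cxcl17 at 0.57 ± 0.14 (adjusted p = 0.0613) and Cxcl5 at 0.40 ± 0.32. Of 14 complement genes C3ar1 passed, and C1qa and C1qb were at 0.55 and 0.60 ± 0.24. The 14 type 2 cytokine and receptor genes had a median of 0.01, 0 past the test and 1 lower at an unadjusted p, with Il4, Il5 and Il13 at -0.16, 0.02 and 0.01. Of 8 eosinophil genes 0 passed and 0 reached an unadjusted p, Epx being at 0.18 and Rnase2a at 0.68 ± 0.45. In the IL-1 and inflammasome list 0 of 14 passed and 1 was higher at an unadjusted p, with the receptor antagonist Il1rn at 0.50 ± 0.16 (adjusted p = 0.176), and in the interferon list 0 of 13 passed and 1 was higher at an unadjusted p.

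An immunoglobulin heavy chain variable segment, Igh-VS107, was at 8.57 to 10.05 (median 9.06) with 80 µg and 6.82 to 7.73 (median 7.14) with DM. The groups did not overlap and the difference was 1.95 ± 0.40 (limma, adjusted p = 0.00573). Igh-VS107 did not pass when the features of a gene were averaged (1.94, adjusted p = 0.0728) or in arrays without the word replacement (1.79, adjusted p = 0.14). The light chain segment Iglv1 was at 1.65 ± 0.43 (adjusted p = 0.0775) and the joining chain Jchain at 1.11 ± 0.46 (adjusted p = 0.364), both with control mice as high as 8.08 and 8.96. Variable segments share sequence, so a feature can also read related segments. Of 13 genes in the plasma cell list Pigr, which epithelium makes, was the sole gene to pass. The differentiation genes Xbp1, Prdm1, Irf4 and Tnfrsf17 were at 0.16, 0.09, -0.15 and -0.05.

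B cell genes were below 0 throughout while a single member passed. All 13 measured genes were below 0 (-0.70 to -0.30), 12 of them at an unadjusted p, with a median of -0.51. Swap70, a guanine exchange factor first described in B cells, was at 7.47 to 7.90 (median 7.71) against 7.83 to 8.18 (median 8.03) and fell by 0.34 ± 0.08 (limma, adjusted p = 0.0259), with 7 of 8 mice below every control. Cr2, the complement receptor of mature B cells, was at 4.62 to 6.40 (median 5.72) against 5.94 to 6.77 (median 6.40), a difference of -0.70 ± 0.21 (adjusted p = 0.136). Bank1, a scaffold of B cell receptor signalling, was at -0.68 ± 0.19 (adjusted p = 0.115), Ms4a1, which encodes CD20, at -0.64 and the transcription factor Pax5 at -0.51. The list mean lay between 5.81 and 7.08 in treated mice and between 6.62 and 7.35 in controls, with 4 of 8 treated mice below every control. Those were replicates 2, 6, 7 and 8. In arrays without the word replacement, which hold 80 µg replicates 6, 7 and 8, the median was -0.85 with 6 genes lower, and in those with it -0.21 with 0 lower. Without 80 µg replicates 1 and 5 the median was -0.59 with 2 genes lower.

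**Figure D2:**
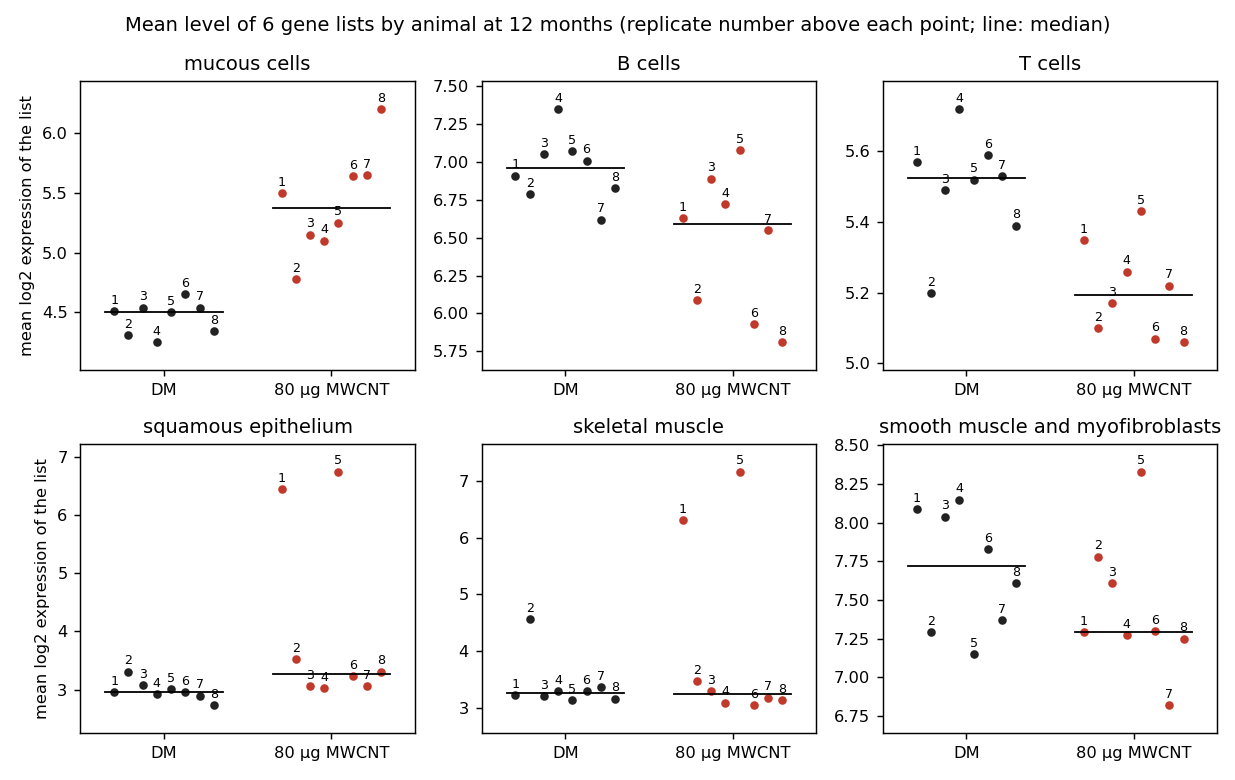
Mean log2 level of the measured members of 6 gene lists (vertical axis) in each mouse given 80 µg MWCNT or DM at 12 months, with replicate numbers as labels. The mucous cell means of treated mice (4.78 to 6.20) lie above all controls (4.25 to 4.65), the B cell means overlap, and replicates 1 and 5 of the 80 µg group stand apart in squamous epithelium and skeletal muscle.

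T cell and cytotoxic genes were also mostly below 0. Cd3d, a chain of the T cell receptor complex, was at 3.44 to 4.82 (median 3.76) with 80 µg and 3.91 to 5.19 (median 4.93) with DM. It fell by 0.86 ± 0.19 (limma, adjusted p = 0.019), with 5 of 8 mice below every control. Treated replicates 2, 3 and 6, at 4.09, 3.98 and 4.82, lay within the control range, whose lowest value, 3.91, was that of DM replicate 2. The other chains were at -0.34 (Cd3e) and -0.43 (Cd3g) without passing. Of 21 T cell genes 20 lay below 0, 9 of them at an unadjusted p, with a median of -0.27. The transcription factor Bcl11b was at -0.52 ± 0.16 (adjusted p = 0.168), Cd8a at -0.44 and Cd4 at -0.02. Of 15 cytotoxic lymphocyte genes 0 passed, 6 were lower at an unadjusted p and the median was -0.32, with granzyme Gzma at -0.74 ± 0.23 and the receptor Klrb1c at -0.67 ± 0.21 (both adjusted p = 0.17). That list was at -0.51 with 1 gene lower in arrays without the word replacement and at -0.12 with 0 lower in those with it, and the T cell list at -0.41 and -0.20 with 1 and 0 lower. Cd3d itself did not pass without 80 µg replicates 1 and 5 (-0.76, adjusted p = 0.0823), nor without 80 µg replicate 8 alone (-0.83, adjusted p = 0.0721). Bend5, a protein with a DNA-binding BEN domain, was at 4.09 to 5.38 (median 4.89) against 5.06 to 5.56 (median 5.38) and fell by 0.53 ± 0.13 (adjusted p = 0.0311), and Gm4759 fell by 0.75 ± 0.19 (adjusted p = 0.0476). Lists of lymphoid organisation (10 genes, median 0.02) and MHC class II (9 genes, median -0.04) had 0 past the test and 3 and 2 lower at an unadjusted p.

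Matrix and fibrosis genes gave no call. Of 21 collagens and structural matrix genes 0 passed in limma, 3 were lower at an unadjusted p (Postn, Loxl1 and Dcn) and the median was -0.07. The median was -0.25 where titles lack the word replacement, 0.12 where they carry it, -0.16 without replicate 2 of both groups and -0.18 without arrays high in squamous or skeletal muscle genes, with 0 genes past the test in each. Col1a1, a chain of the main fibrillar collagen, was at 7.63 to 8.99 (mean 8.07 ± 0.41, SD) against 7.20 to 8.60 (mean 8.04 ± 0.45, SD), a difference of 0.02 ± 0.17. Col1a2 was at -0.09 ± 0.15, Col3a1 at 0.04 ± 0.15, the fibronectin gene Fn1 at 0.07 ± 0.12, periostin (Postn) at -0.24 and tenascin C (Tnc) at 0.31 ± 0.18. In 80 µg replicate 5 Col1a1 and Col3a1 stood at 8.99 and 8.95, above the other treated mice. Of 17 genes of TGF-beta ligands, receptors and Smads 0 passed and 0 reached an unadjusted p, and Tgfb1 was at -0.06 ± 0.12. The 12 smooth muscle and myofibroblast genes had a median of -0.27, 0 past the test and 2 at an unadjusted p, with Acta2 at -0.15 ± 0.20, Tagln at -0.46 ± 0.19 and the fibroblast receptor Pdgfra at -0.32 (adjusted p = 0.0528). The list median was -0.43 without 80 µg replicates 1 and 5, -0.36 with 1 gene lower without replicate 2 of both groups, -0.49 with 1 lower in arrays without the word replacement and -0.10 with 0 lower in those with it. Kcnmb1, the beta subunit of a calcium-activated potassium channel of smooth muscle, rose by 0.59 ± 0.14 (adjusted p = 0.0229) and did not pass without 80 µg replicates 1 and 5 (adjusted p = 0.0729). A p that misses the threshold does not show that levels were the same.

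Of the 44 gene lists 10 had a member that rose, 2 a member that fell and 32 had neither, and 20 of the 39 called genes were in no list. Cell cycle genes were above 0 in 21 of 23, with 0 past the test, 6 at an unadjusted p and Mki67 at 0.46 ± 0.14 (limma, adjusted p = 0.172). All 13 genes of oxidative stress defence were above 0 with 0 past the test and 4 at an unadjusted p, led by the cystine transporter Slc7a11 at 1.00 ± 0.27 (adjusted p = 0.0875) and the metallothionein Mt2 at 0.65 ± 0.20. Among 11 p53 targets 0 passed and 2 were higher at an unadjusted p, and the cell cycle inhibitor Cdkn1a was at 8.95 to 9.93 (median 9.43) against 8.36 to 9.24 (median 8.68), a difference of 0.64 ± 0.17 (adjusted p = 0.0879). Immediate early, clock and xenobiotic enzyme lists had 0 past the test with medians of 0.08, 0.03 and 0.01, and 2, 1 and 2 genes at an unadjusted p. Endothelial genes had 0 past it, 2 lower at an unadjusted p and a median of -0.12. Squamous epithelium genes had a median of 1.12 that became 0.19 without 80 µg replicates 1 and 5, and skeletal muscle genes a median of 0.69 that became -0.17. Cardiac muscle genes were at a median of -0.48 (-0.75 without these mice), and adipose genes at -0.27 (-0.43 without them). For crocidolite against DM at 12 months the cardiac median was -1.12, with 11 of 13 genes lower (2.16% of all genes were). Where the cardiac muscle RNA came from was not tested. For 80 µg against DM in arrays without the word replacement the cardiac median was -0.95 and the adipose median -0.77, and in those with it -0.14 and -0.01. None of these lists had a gene past the test for 80 µg against DM over all arrays. At an unadjusted p 10 squamous and 1 skeletal muscle gene were higher and 4 cardiac genes lower.

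**Figure D3:**
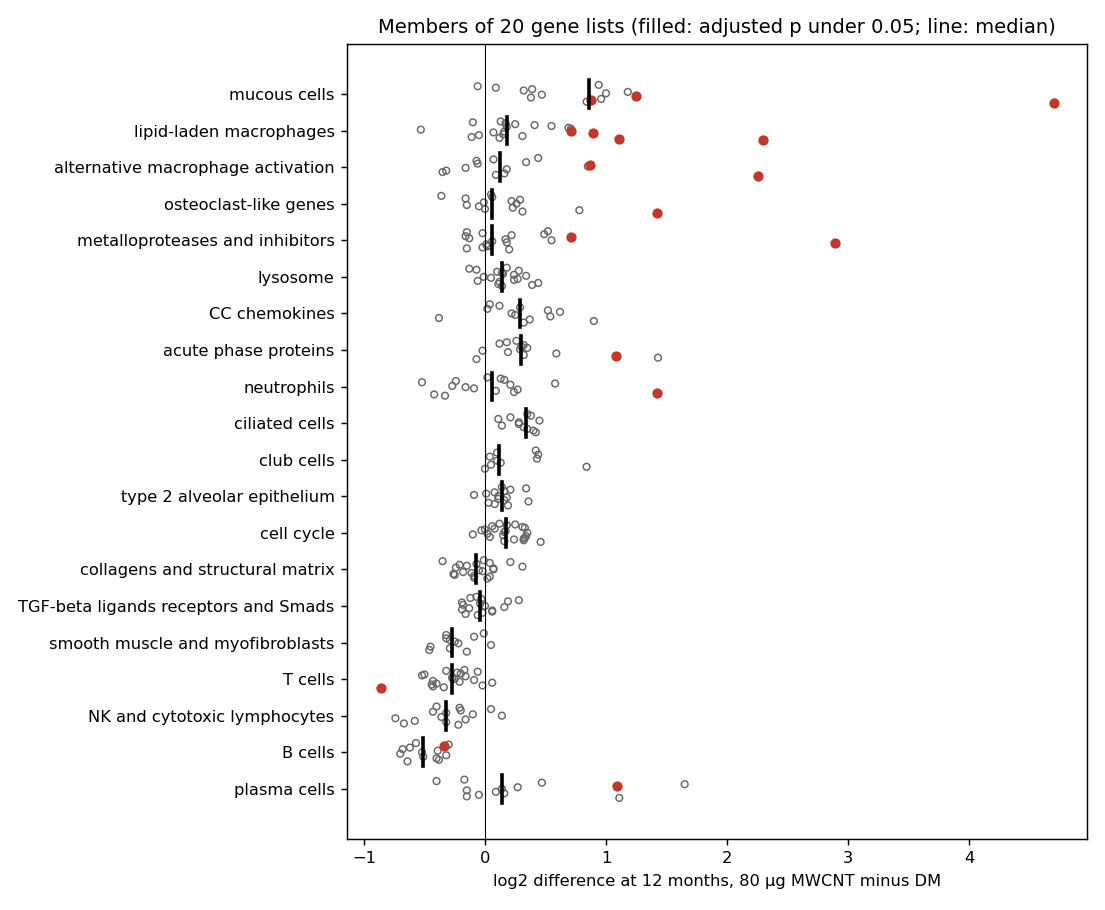
Log2 difference, 80 µg MWCNT minus DM at 12 months (horizontal axis), for the measured members of 20 gene lists (rows). Filled points passed limma's test at an adjusted p under 0.05, open points did not, and a line marks each list's median, which is 0.86 for mucous cells, -0.51 for B cells and -0.07 for collagens and structural matrix.

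The remaining genes past the test have varied roles. Nr1i2, the nuclear receptor PXR that senses foreign chemicals, was at 3.11 to 4.91 (median 4.10) against 3.08 to 4.04 (median 3.22) and rose by 0.76 ± 0.17 (limma, adjusted p = 0.019). Pklr, the pyruvate kinase of liver and red cells, was at 4.48 to 5.39 (median 4.78) against 3.44 to 4.71 (median 4.17) and rose by 0.76 ± 0.15 (adjusted p = 0.00414). In both genes 4 of 8 treated mice lay above every control. Ppp1r14d, an inhibitor of protein phosphatase, rose by 0.65 ± 0.16 (adjusted p = 0.0366) and passed in 6 of 14 alternatives, with an adjusted p of 0.0766 without 80 µg replicates 1 and 5 and 0.0852 without replicate 2 of both groups. Dusp18, a dual-specificity phosphatase, rose by 0.48 ± 0.10 and Atp10a, a phospholipid flippase, by 0.43 ± 0.10. Pklr passed with every single array left out, and Dusp18 with every one other than 80 µg replicate 8.

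The same genes were looked up at 1 and 6 months after 80 µg, in other mice with DM controls of their own. Of the 35 genes higher at 12 months, all were above 0 at both times, 28 had risen at 1 month (80.0%), 27 at 6 months (77.1%) and 26 at both. They were 7.49% of the 374 genes higher at 1 month (1.69% of all genes) and 15.2% of the 178 higher at 6 months (0.803%). Their median difference was 1.31 at 1 month, 0.91 at 6 months and 0.89 at 12 months. Mmp12 was at 3.87, 2.92 and 2.89 in that order, Gpnmb at 3.13, 2.47 and 2.30, Retnla at 3.68, 3.08 and 2.26, and Ctsk at 2.80, 2.04 and 1.42. Clca1 was at 6.36, 5.18 and 4.70, Fcgbp at 3.03, 1.82 and 1.25, and Muc5b at 1.54, 0.91 and 0.88. The test of the difference in effect between 12 and 1 month passed for none of the 39 genes, with adjusted p of 0.0656 for Fcgbp, 0.232 for Ctsk and 0.379 for Retnla in limma. Taking all 374 genes higher at 1 month, 347 were above 0 at 12 months and their median went from 0.65 to 0.28, a selection that favours the time at which they were chosen.

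**Figure D4:**
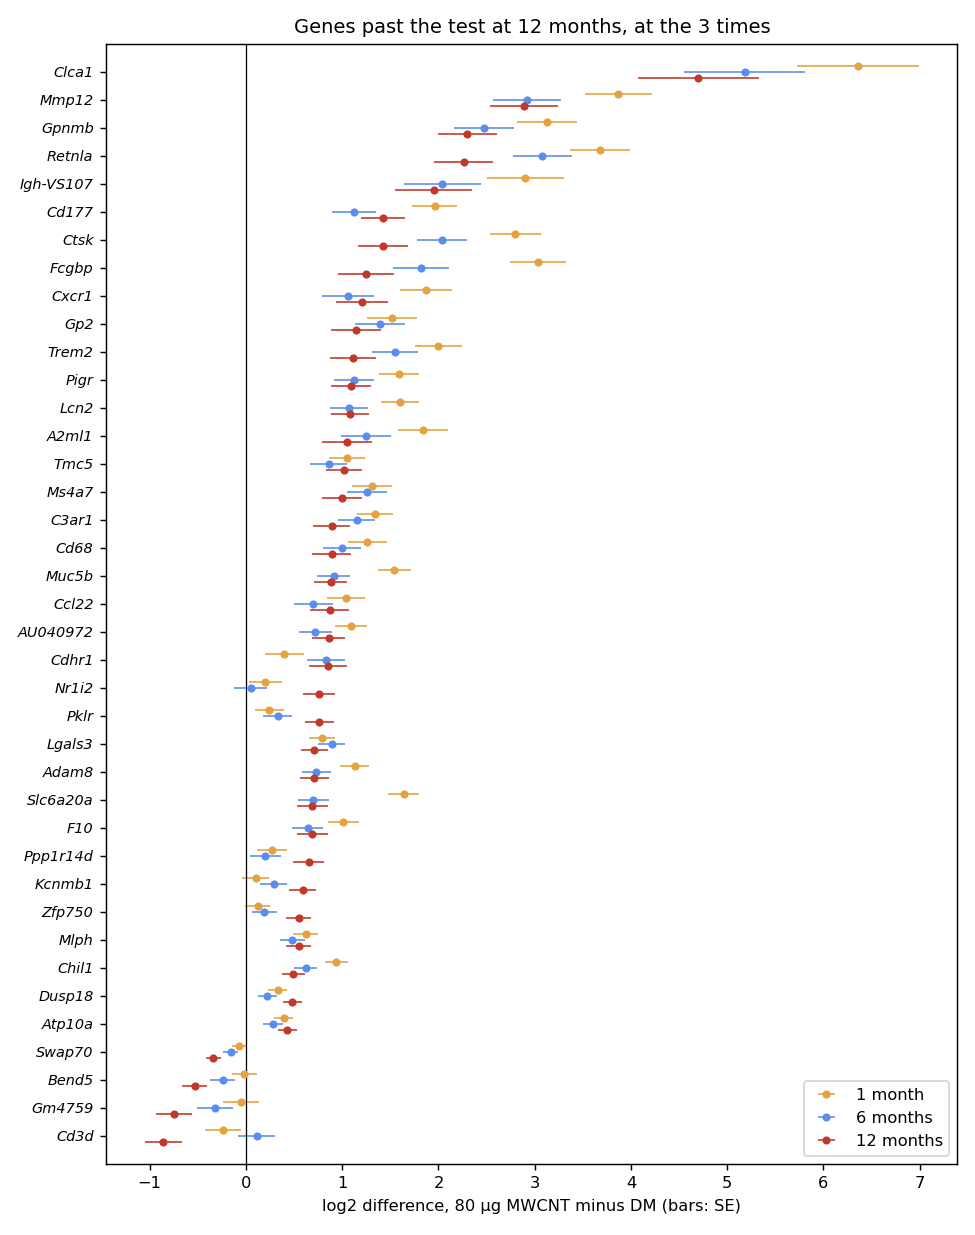
Log2 difference between 80 µg MWCNT and DM with its SE (horizontal axis) at 1, 6 and 12 months for the 39 genes past the test at 12 months (rows). Clca1 runs from 6.36 at 1 month to 4.70 at 12 months, and Bend5 from -0.02 to -0.53.

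Of the called genes, 6 higher at 12 months and the 4 lower were past the test at neither earlier time. These were Dusp18 (0.33 at 1 month and 0.22 at 6 months), Kcnmb1 (0.10 and 0.29), Nr1i2 (0.20 and 0.05), Pklr (0.24 and 0.33), Ppp1r14d (0.27 and 0.20) and Zfp750 (0.12 and 0.19). Among the lower genes Cd3d was at -0.24 and 0.11, Swap70 at -0.07 and -0.16, Bend5 at -0.02 and -0.24 and Gm4759 at -0.05 and -0.32. Limma called none of them in the test of the difference between times (adjusted p = 0.573 for Nr1i2 and Pklr and 0.473 for Bend5 against 1 month), so they are not shown to be particular to 12 months. That test called 2 of 22180 genes between 12 and 1 month (0.00902%), both with a smaller effect at 12 months. Chil4, the chitinase-like protein Ym2, was at 5.19 at 1 month, 2.84 at 6 months and 0.60 at 12 months, a difference between 12 and 1 month of -4.60 (adjusted p = 0.0025). Scin, an actin-severing protein, was at 1.90, 1.42 and 0.11 (-1.79, adjusted p = 0.0134). Of the 12-month arrays, leaving out 80 µg replicate 3 or DM replicate 6 gave 1 call, DM replicate 2 gave 4 and 80 µg replicate 8 gave 6. Between 12 and 6 months 0 genes were called (1 without 80 µg replicate 3) and 1132 had an unadjusted p under 0.05. B cell genes had medians of -0.33, -0.48 and -0.51 at 1, 6 and 12 months and mucous cell genes of 1.27, 1.00 and 0.86.

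Against the neighbouring dose, 1 gene differed between 80 and 40 µg at 12 months (0.00451%), and 3051 had an unadjusted p under 0.05. It was Mon1a, a vesicle trafficking protein, at 6.43 ± 0.15 (SD, n = 8) with 80 µg, 5.81 ± 0.23 (SD, n = 8) with 40 µg and 6.10 ± 0.33 (SD, n = 8) with DM, a difference from 40 µg of 0.62 (limma, adjusted p = 0.0461). Limma called 0 genes when any of 80 µg replicates 1, 2, 4, 5, 6 or 8 or DM replicates 2 or 6 was left out, although DM is no part of that contrast. None of the 39 genes differed between 80 and 40 µg. Mean levels of Mmp12 at 0, 1, 10, 40 and 80 µg were 5.31, 5.34, 6.17, 7.30 and 8.20, and SDs lay between 0.26 and 0.62. Those of Gpnmb were 6.22, 6.11, 6.78, 7.62 and 8.51, of Clca1 3.74, 4.37, 5.56, 7.44 and 8.44, and of Retnla 7.37, 7.32, 7.81, 9.32 and 9.63. For Retnla the step between 40 µg (9.32 ± 0.60) and 80 µg (9.63 ± 0.32) was within their SDs. Each dose was set against the same DM mice, so their differences from DM share those animals. For the 35 higher genes the median difference from DM was 0.09 at 1 µg, 0.39 at 10 µg, 0.48 at 40 µg and 0.89 at 80 µg, and at 40 µg 6 of them passed (0.0271% of all genes did). The genes were chosen for passing at 80 µg, which favours that dose over the others.

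Crocidolite at 120 µg, a larger mass of a different fibre, gave larger differences from the same DM mice, with a median of 1.61 for the 35 genes, of which 34 rose (4.31% of all genes did). Of the 4 lower genes 2 fell with crocidolite (2.16% of all genes did). Compared directly, 217 genes differed between 80 µg MWCNT and crocidolite (0.978%), 33 higher and 184 lower (0.83%) with MWCNT, and 108 differed without 80 µg replicate 2. Of the 39 genes 11 were lower with MWCNT and 0 higher. Gp2 was at 4.47 ± 0.79 (SD, n = 8) with MWCNT and 7.60 ± 0.35 (SD, n = 7) with crocidolite, a difference of -3.13 ± 0.27 (limma, adjusted p = 2.54e-17). Cdhr1 was at 3.92 against 5.72 (-1.80 ± 0.20, adjusted p = 5.16e-11), Cd177 lower by 1.16 ± 0.24 and Tmc5 by 1.02 ± 0.20. Dmbt1, a mucosal scavenger protein, was at 2.95 ± 0.48 with MWCNT, 2.68 ± 0.34 with DM and 7.04 ± 0.79 with crocidolite, a difference between fibres of -4.09 ± 0.29. The fibrinogen chain Fgg differed by -2.73 ± 0.31 and Muc5ac by -1.43 ± 0.28 (adjusted p = 0.000956). Clca1 was at 8.44 with both fibres, with a difference of 0.00 ± 0.66, and Mmp12 at 8.20 and 9.15, a difference of -0.95 ± 0.36 that did not pass (adjusted p = 0.226). With predicted genes and olfactory receptors left aside, genes higher with MWCNT than crocidolite were led by the ion channel Kcna1 (0.87 ± 0.23), Popdc2 of heart muscle (0.74 ± 0.19) and Vwa5b1 (0.71 ± 0.19). Kcna1 was at 4.67 in 80 µg replicate 5 and between 2.59 and 3.68 in the other 80 µg mice, at the dim end of the scale. The dose in µg differs between the fibres, so mass and fibre type cannot be told apart.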

How the data were processed

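Whole-lung RNA was measured on Affymetrix arrays. The deposited values are log2 intensities that the authors made with RMA, and oligo and limma are also named in the submitters' processing notes. No source used here gives tool versions or the genome build. All 139 arrays were read; the 2 arrays of 1 mouse were averaged, giving 138 animals in 18 groups. Of 41345 features 23521 carried 1 gene symbol, 1814 several and 16010 none. Of the single-symbol features 23328 matched RefSeq by Entrez number and no symbol changed. Where features shared a gene, the brightest by mean over all arrays stood for it (1341 set aside, 22180 genes left).

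A mean per group was fitted to all animals with limma 3.58.1 (lmFit and eBayes) in R 4.3.3, with 120 residual degrees of freedom and Benjamini-Hochberg adjustment over all genes at 0.05. Arrays give no read depth, so their number limits precision, and a level near either end of the scale can understate a fold. On simulated data for this comparison, with 200 of 22180 genes changed, 51.5% of 1.5-fold and 96% of 2-fold changes were recovered. Among the unchanged genes 4 and 10 were called. The simulated noise was independent between genes, without arrays that shift many genes together, so these shares need not hold for the real arrays.

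Named genes were all those past the test, the 2 members with the largest difference in each of 44 lists (603 of 659 members measured), a panel of fibrosis, airway and inflammation genes, and the 3 highest and 3 lowest genes past the test in the other comparisons. For those other comparisons predicted genes (Gm with digits, or a name ending in Rik) and olfactory receptors were left out before the choice. Other list members given as examples were chosen after their values were seen. The comparison and the lists were chosen with earlier results of these data known. Alternatives covered scaling, dim genes, gene features, the samples fitted, moderation, array weights, the word replacement and arrays that stand apart.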

Additional observations from a re-analysis of the deposited data

Results flagged for a closer look

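Single animals stood apart from the other 7 of their group in 30 of 266 combinations of gene and group that were examined, by the gap to the nearest mouse over the group's range, a rule that chance meets in about 1 in 20 groups. In the 80 µg group 11 of these values were those of replicate 8: Ccl22 at 6.94, Cd177 at 8.92, Ctsk at 8.10, Cxcr1 at 6.62, Pigr at 10.54, Saa3 at 7.31, Rnase2a at 4.28, Slc7a11 at 5.31, Atp6v0d2 at 9.02 and Timp1 at 5.84 were high, and Gm4759 at 5.59 was low. Replicate 5 stood apart in Thrsp (6.76), Bcl11b (5.58), Col1a1 (8.99) and Col3a1 (8.95), replicate 6 in Cd3d (4.82) and replicate 2 in Casp1 (5.29).

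Among DM mice replicate 2 stood apart in Atp10a (5.57), Clca1 (4.75), Chil4 (4.13), Cxcl17 (7.39), Myh4 (3.96), Myh1 (4.54), Tagln (6.93) and Ltbp2 (6.27). Replicate 4 did so in Bank1 (8.42) and in the type 1 alveolar genes Rtkn2 (7.91), Hopx (5.40) and Ager (9.99), and replicate 6 in Nr1i2 (4.04).

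The effect of 80 µg differed between 12 and 1 month for Chil4 (-4.60) and Scin (-1.79) by the interaction term in limma. Outside the named genes, 9 features without a single gene symbol differed between 80 µg and DM at 12 months, 3 higher and 6 lower. They come from a separate fit of all 41345 features. Of 16010 features with no symbol 2 were higher and 6 lower, and of 1814 with several symbols 1 was higher. In the same fit 32 of the 23521 features with 1 symbol were higher and 3 lower.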

How the results depend on the processing

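All 39 genes kept their direction in every alternative that tested them, and Clca1, Mmp12, Gpnmb and Retnla passed in all of them. Against the 35 higher and 4 lower calls, quantile normalization gave 91 and 28, centring on array medians 50 and 16, the brighter genes alone 45 and 9, a fit of only these groups 20 and 1, array weights 80 and 47, arrays without the word replacement 134 and 73, arrays with it 5 and 0, leaving out arrays of low correlation 97 and 61, and leaving out arrays high in squamous or skeletal muscle genes 45 and 51. Leaving out 80 µg replicates 1 and 5, an alternative chosen after seeing the data, gave 41 and 16. With single arrays left out the counts ran from 13 to 67 higher and from 0 to 24 lower. Higher genes made up 76.5% of the calls after quantile normalization, 63.0% with array weights, 61.4% without arrays of low correlation and 46.9% without arrays high in squamous or skeletal muscle genes.

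The count of 1 between 80 and 40 µg became 3 after quantile normalization, 2 when centred, 304 with array weights and 1179 without the word replacement. It became 0 in the groups compared alone, with the word as a covariate, in arrays with the word, and without arrays of low correlation or high in squamous or muscle genes, and ran from 0 to 1 with single 80 µg or DM arrays left out (no 40 µg array was left out). The 217 between 80 µg and crocidolite became 67 in the groups compared alone, 483 without the word, 71 with it and 137 without arrays high in squamous or muscle genes, and ran from 108 to 298 with single 80 µg or DM arrays left out (no crocidolite array was left out). The 2 genes between 12 and 1 month became 0 among brighter genes and in arrays with the word, 10 in the groups compared alone, 13 with array weights and 17 without arrays high in squamous or muscle genes, and ran from 1 to 6 with single 12-month arrays left out. Between 12 and 6 months the count ran from 0 to 1. The causes of these changes were not tested. No paired analysis was possible because the labels give no replicate numbers shared between groups.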
